A study of Glycine max with 12 samples.

Results

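Soybean roots that carried nitrogen-fixing nodules were compared after 24 h with nitrate and without it. The comparison rests on 6 of the 12 arrays of the series, 3 nitrate roots and 3 control roots, chosen by their labels alone. All plants were of the cultivar Nourin No. 2, were inoculated with Bradyrhizobium diazoefficiens USDA110 and grew in a nutrient solution free of nitrogen. On day 19 after planting 5 mM nitrate was given to the nitrate plants for a period of 24 h, while the solution of the control plants stayed free of nitrogen. The root samples were the lower part of the root system, which bore no visible nodules, so they hold whole root tissue and not a single cell type. Each sample was a pool of 3 plants, and per the design text the 3 samples of a group came from independent experiments. The first control root carries replicate number 1 in its title and number 2 in another label, and the title was followed here.

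Nitrate enters root cells through transporters of the NRT1 and NRT2 families and is reduced to nitrite by nitrate reductase in the cytosol. Nitrite is then reduced to ammonium in plastids by ferredoxin-nitrite reductase. In roots the electrons for nitrite come from NADPH of the oxidative pentose phosphate pathway, by way of ferredoxin-NADP oxidoreductase and ferredoxin. Ammonium is bound by glutamine synthetase and glutamate synthase, with 2-oxoglutarate as the carbon acceptor, and asparagine synthetase makes the amide that many legumes carry to the shoot in xylem sap. A supply of nitrate is also known to restrain nodule formation and nitrogen fixation in legumes.

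The values are the brightness of Cy3-labelled probes on a soybean oligonucleotide array, after each array was scaled to an average of 2500 over the 42748 probes that are not controls. A probeset here is 1 probe, and its scaled signal has no unit. Values of a group are given in the order of replicates 1, 2 and 3. A probeset entered the test when every array of the nitrate roots, or every array of the control roots, read it well above background. This held for 33957, of which 33951 had an estimate. Before scaling, the mean signal of the root arrays lay between 2711 and 3736, and 79.2% to 82.9% of probes were well above background. After scaling, control root 2 had the lowest 75th percentile (1144), and the other 5 root arrays lay between 1400.0 and 1587. The arrays of nitrate roots 1, 2 and 3 and control root 1 shared a slide, and control roots 2 and 3 lay on another. A same-slide change below is the mean of the nitrate roots minus control root 1, all on the log2 scale. The 51 probesets that were abundant in nodules, chosen without regard to nitrate, had a summed signal of 52006, 110737 and 19141 in nitrate roots, against 65302, 26651 and 35960 in control roots. On the nodule arrays the same sum was between 4404900 and 4918760. These probesets were chosen for a lowest nodule signal over 16 times their highest root signal, and a median nodule signal in the top 1%. Low sums on the root arrays were thus fixed by the choice. The ranges of nitrate and control roots overlapped. Of the 50 that were tested, 0 were called in the limma fit, and their median log2 change was 0.23.

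Nitrate upregulated 289 probesets, or 0.851% of those tested, and downregulated 577, or 1.7%. A probeset is called upregulated or downregulated here at an adjusted p under 0.05 in limma (Benjamini-Hochberg over all tested probesets) and a change above 2-fold. In this fit the upregulated probesets were fewer and changed more, but which direction held more calls depended on the arrays used, as given below. Their median change was 4.47-fold, and 36 of them changed above 16-fold, against a median of 3.11-fold and 6 above 16-fold among the downregulated probesets. All nitrate roots lay above all control roots in 5164 probesets (15.2%), and below them in 4939 (14.5%). All 289 upregulated and all 577 downregulated probesets were among them, so groups that do not overlap add nothing to a call below. Changes above 2-fold in the mean, with no test, numbered 1763 upward (5.19%) and 1701 downward (5.01%). Exact permutation of 3 nitrate and 3 control roots gives no p below 0.1, so the calls rest on the spread that limma shares across probesets. In whole root tissue, fewer cells of a type and less RNA per cell cannot be told apart.

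The replicate numbers were taken to pair the samples, from the correlation of same-numbered arrays, although the number of control root 1 differs between labels. The fit above leaves this pairing out. With the number as a block limma upregulated 1435 probesets (4.23%) and downregulated 1468 (4.32%), which held all 289 and all 577. With the slide as a block, 79 and 49 probesets were called. The counts also moved with single arrays. Without nitrate roots 1, 2 and 3 in turn, 120, 129 and 154 probesets were upregulated, and without control roots 1, 2 and 3 the numbers were 1121, 363 and 118. The downregulated probesets numbered 68, 76 and 162 without nitrate roots 1, 2 and 3, and 1399, 1156 and 89 without control roots 1, 2 and 3. Upregulated probesets were thus the more numerous without nitrate root 1, nitrate root 2 or control root 3. The median change of all tested probesets was 0.10 on the log2 scale, and -0.11 on the same slide.

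There were 56 probesets (0.165%) that were well above background on all 3 nitrate roots and on no control root, and 27 of these were upregulated. Another 73 (0.215%) were well above background on all 3 control roots and on no nitrate root, and 31 of these were downregulated.

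Descriptions were at hand for 2964 probes, from tables that the study made of probesets changed by nitrate, 1692 from root tables and 1272 from nodule tables only. The root tables were chosen on these same root arrays, so the direction of a group made of their members is no independent evidence. A probeset counted as from nodule tables only if it was in no root table. Few calls among these in roots were thus fixed by the choice, and they are no unselected contrast. Of their 1135 tested probesets 3 were upregulated and 5 downregulated, against 257 upregulated and 444 downregulated of the 1692 from the root tables. With the replicate block these numbers were 53 and 41, against 948 and 712. The counts of groups made mostly of root-table members are to be read against those of all root-table probesets. From the descriptions 23 gene groups were formed, which hold 191 of the 866 called probesets, 190 of them from the root tables. Several probesets of a group can target the same transcript, so a count of probesets is not a count of genes. The chart of calls by gene group sets them side by side.

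**Figure D1:**
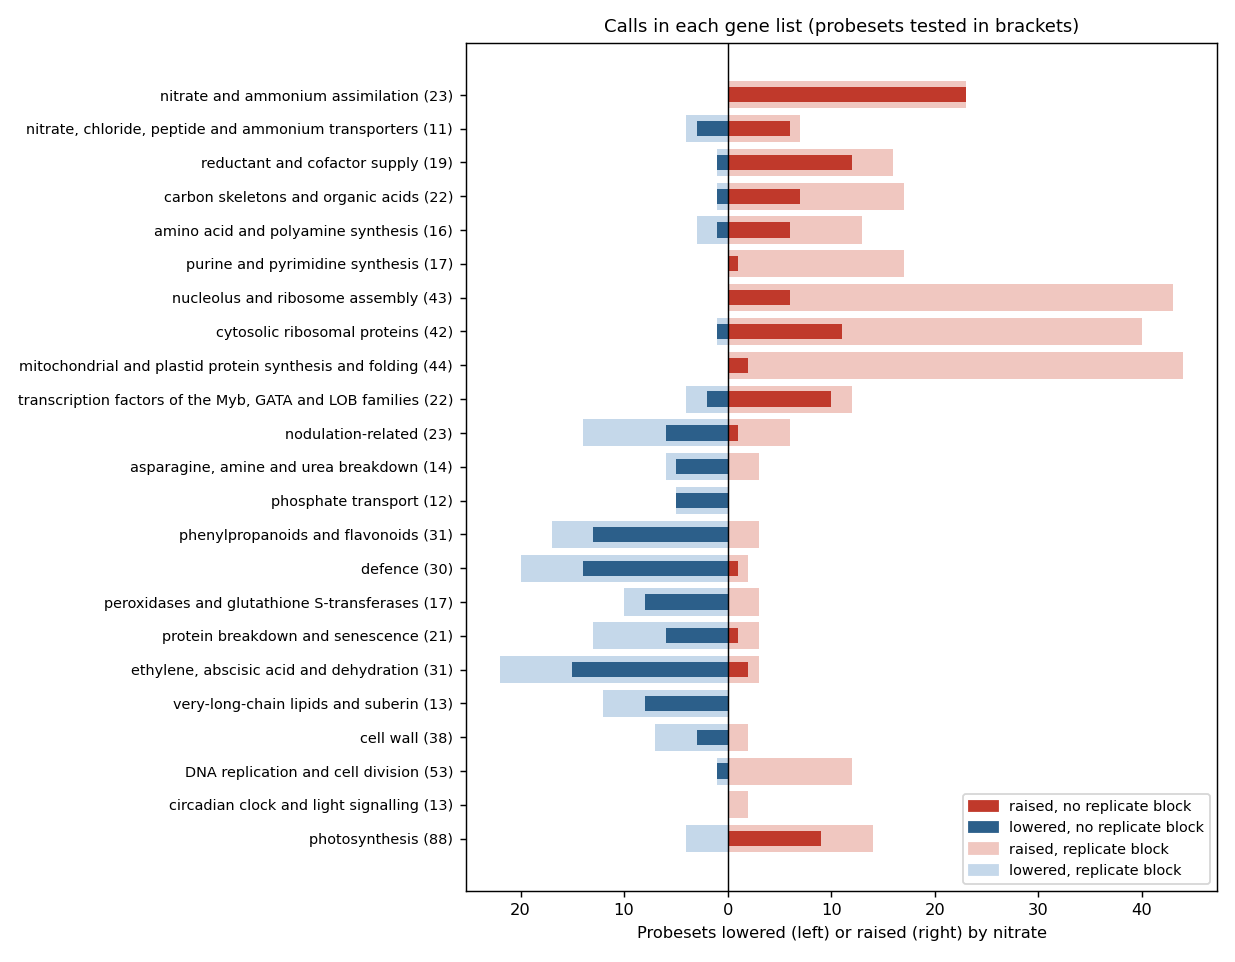
Number of probesets upregulated (right) and downregulated (left) in each of the 23 gene groups, for nitrate roots against control roots, without the replicate block (dark bars) and with it (light bars). Nitrogen assimilation had 23 of 23 tested probesets upregulated, while ethylene, abscisic acid and dehydration had 15 of 31 and defence 14 of 30 downregulated, all without the block.

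The genes of nitrate and ammonium assimilation stood at the top of the response. All 23 tested probesets of this group were upregulated, and in all of them the 3 nitrate roots lay above the 3 control roots. Their median log2 change was 3.49, and 3.30 on the same slide, where that of all tested probesets was 0.10. In 4 of the 23 no control value was well above background, and with these at their lower bound the median was 3.29. Of the 23, 22 came from the root tables and 1, a glutamate synthase, from a nodule table. With 1 array left out, between 20 and 23 stayed upregulated, and with the slide as a block 17 did.

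The plot of signals by array shows these enzymes in the order of the pathway. Nitrate reductase, which turns nitrate into nitrite, was read by 3 probesets, whose median signal was 27359, 26142 and 32470.2 in nitrate roots, against 251, 906 and 123 in control roots. The control roots differed among themselves, with control root 2 the highest, yet the groups were far apart. The log2 changes of the 3 lay between 6.16 and 6.83 (adjusted p 0.00340 to 0.00495, limma). Ferredoxin-nitrite reductase, the next enzyme, had some of the largest upward changes in these roots. Its probeset GMFL01-08-I05-R_317 had signals of 57387, 58834 and 64402 in nitrate roots, against 115, 96.7 and 123 in control roots. Both groups were tight, and the nitrate roots were 542 times as bright (log2 change 9.08 ± 0.20, SE, adjusted p 4.65e-06). A dimmer probeset of the same enzyme, BG155089.1_555, had 3519, 3307 and 3655 in nitrate roots, against 2.44, 3.18 and 2.16 in control roots, where no control value was well above background. The fold was therefore at least 382 (log2 change 10.41 ± 0.22, SE, adjusted p 4.65e-06). Both calls held without any 1 array.

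**Figure D2:**
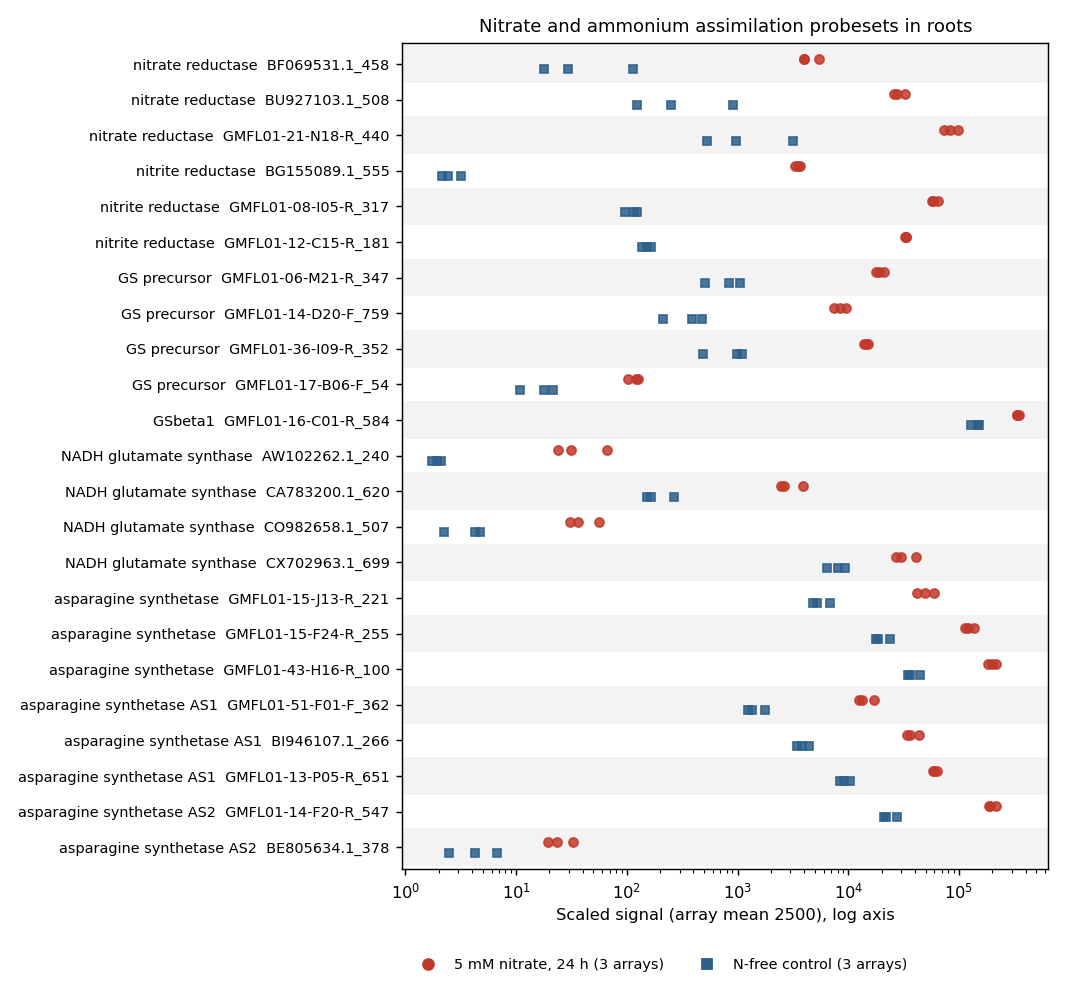
Scaled signal (log scale) of the 23 probesets of nitrate and ammonium assimilation in each nitrate root and each control root, with 1 point per array. In every probeset shown the 3 nitrate roots lie above the 3 control roots, as in all 289 upregulated probesets, with the widest gap in nitrite reductase.

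Downstream of nitrite reductase the changes were smaller. The 4 probesets of the glutamine synthetase precursor had a median signal of 11464, 10608 and 12292 in nitrate roots, against 764, 349 and 612 in control roots, with log2 changes of 2.85 to 4.64. The cytosolic isoform GSbeta1 had 1 probeset, which was also upregulated but by the least of the group (log2 change 1.26, adjusted p 0.0203). NADH-dependent glutamate synthase, which turns glutamine and 2-oxoglutarate into glutamate, had 4 upregulated probesets, 2 of them with no control value well above background, with a median signal of 1976, 1254 and 1339 in nitrate roots, against 136, 83.9 and 78.0 in control roots. Asparagine synthetase was read by 8 probesets, described as AS1, AS2 or without a number, and all 8 were upregulated, by log2 changes of 2.40 to 3.30, although for BE805634.1_378 only a change of at least 2.69-fold is known, as no control value was well above background. Their median signal was 49977, 56171 and 59351 in nitrate roots, against 8586, 7190.1 and 6649.8 in control roots, so the lowest nitrate root was far above the highest control root.

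Of the transporters, some were strongly upregulated and others fell. Among the 11 tested probesets, 6 were upregulated, 3 were downregulated and 2 did not pass the test. The calls were all among the 10 from the root tables. The high-affinity nitrate transporter NRT2 (probeset GMFL01-19-H08-R_500) was bright in both groups. Its signals were 80615, 117814 and 116117 in nitrate roots, against 3906, 5362 and 4038 in control roots, a change of 23.5-fold (log2 change 4.56 ± 0.25, SE, adjusted p 5.35e-04). The largest change of the group belonged to a proton-coupled oligopeptide symporter (GMFL01-14-C18-R_644), a member of the family that also holds the NRT1 nitrate transporters. It had signals of 11884, 16534 and 23074 in nitrate roots, against 458, 225 and 393 in control roots (log2 change 5.59 ± 0.36, SE, adjusted p 7.83e-04). Both kept their call without any 1 array.

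The 4 probesets described as chloride channels of the CLC superfamily were all upregulated. In Arabidopsis, members of this family move nitrate into the vacuole. Probeset BG359405.1_414 had signals of 595, 402 and 391 in nitrate roots, against 34.9, 35.6 and 32.1 in control roots (log2 change 3.73 ± 0.23, SE, adjusted p 7.60e-04), and AW760651.1_483 had 3456, 3014 and 3159 in nitrate roots, against 257, 294 and 279.6 in control roots (log2 change 3.54 ± 0.19, SE, adjusted p 5.11e-04). The other two had log2 changes of 1.81 and 1.82. The call of CX711515.1_684 was lost without nitrate root 1, 2 or 3 or control root 3 (adjusted p 0.0612 to 0.0846), and that of GMFL01-47-K04-F_321 without nitrate root 2 (adjusted p 0.0541).

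The downregulated transporters included other members of the nitrate transporter families. A nitrate and chloride transporter (CA852364.1_395) had signals of 35.6, 40.4 and 45.7 in nitrate roots, against 179.7, 149.9 and 199 in control roots (log2 change -2.12 ± 0.21, SE, adjusted p 0.00528), with no overlap between the groups. A second probeset of the same description (BI970044.1_492) had a log2 change of -1.18 that did not pass the test (adjusted p 0.0791, limma), and it did pass with the replicate block (0.0195). NRT1-3 (GMFL01-10-M04-R_359) had signals of 6301, 6085 and 6871 in nitrate roots, against 20935, 12604 and 20936 in control roots (log2 change -1.46 ± 0.26, SE, adjusted p 0.0350). An ammonia permease (BI498123.1_467) also fell, with 1079, 1856 and 1893 in nitrate roots, against 5094, 4172 and 5779 in control roots (log2 change -1.67 ± 0.28, SE, adjusted p 0.0310). By contrast, an ammonium transporter like Amt1;2 of Lotus japonicus (GMFL01-22-A23-R_536) had 20113, 30268 and 37356 in nitrate roots, against 10787, 13831 and 11558 in control roots, which did not pass the test (adjusted p 0.0680, and 0.0194 with the replicate block). The calls of NRT1-3 and the ammonia permease were lost without nitrate root 1, 2 or 3 or control root 3 (adjusted p 0.0834 to 0.167), while that of CA852364.1_395 held without any 1 array. Over all transporters, the number upregulated was 5, 4 and 5 without nitrate roots 1, 2 and 3 in turn, and 6, 6 and 5 without control roots 1, 2 and 3, and the number downregulated was 1, 1 and 1 without nitrate roots 1, 2 and 3 in turn, and 3, 4 and 1 without control roots 1, 2 and 3.

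Most probesets that serve the supply of reductant and of the cofactors of both reductases were upregulated. Of the 19 tested probesets, 12 were upregulated and 1 was downregulated. All of these calls were among the 17 from the root tables, which were chosen on these arrays. The 2 from nodule tables were not called, with log2 changes of -0.43 and -0.07. The largest change was in uroporphyrin III methyltransferase (GMFL01-16-A20-F_423), which makes the precursor of siroheme, the prosthetic group of nitrite reductase. Its signals were 4567, 3746 and 2865 in nitrate roots, against 262, 259.8 and 192 in control roots (log2 change 3.96 ± 0.25, SE, adjusted p 8.06e-04). The 2 probesets described as molybdopterin biosynthesis protein, which serves the molybdenum cofactor of nitrate reductase, were upregulated, one by a log2 change of 2.08 and the other, CA936913.1_509, by at least 1.56-fold, since no control value of it was well above background. Ferredoxin-NADP oxidoreductase, which passes electrons from NADPH to ferredoxin in root plastids, had 2 upregulated probesets with a median signal of 21292, 20909.7 and 22953 in nitrate roots, against 4249.6, 2289 and 3315 in control roots.

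Glucose-6-phosphate dehydrogenase, the first enzyme of the oxidative pentose phosphate pathway, did not move as a whole. Of its 5 tested probesets, 3 were upregulated, 1 was downregulated and 1 did not pass the test. The most changed, BQ094170.1_453, had signals of 1398, 1244 and 1828 in nitrate roots, against 175, 73.7 and 134 in control roots (log2 change 3.61 ± 0.35, SE, adjusted p 0.00434). The downregulated one, BQ452515.1_362, is described as similar to the cytoplasmic isoform, and it had 21.0, 25.6 and 33.7 in nitrate roots, against 58.1, 65.3 and 90.6 in control roots (log2 change -1.41 ± 0.27, SE, adjusted p 0.0452). It was singled out after its values were seen, and its call was lost without nitrate root 1, 2 or 3 or control root 2 or 3 (adjusted p 0.0521 to 0.194). The enzyme 6-phosphogluconate dehydrogenase, the pathway's second dehydrogenase, had 2 of 3 probesets upregulated. The plastid glucose-6-phosphate translocator, which brings the substrate into the plastid, also had 2 of 3 upregulated. Over all probesets of reductant and cofactor supply, the number upregulated was 8, 8 and 8 without nitrate roots 1, 2 and 3 in turn, and 15, 12 and 8 without control roots 1, 2 and 3, and with the slide as a block it was 5. The calls of the named probesets, GMFL01-16-A20-F_423 and BQ094170.1_453, held without any 1 array.

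Carbon metabolism that feeds amino acid synthesis was partly upregulated. Of 22 tested probesets, 7 were upregulated and 1 was downregulated, with a median log2 change of 1.25, and 0.93 on the same slide. These calls were all among the 17 from the root tables, and none among the 5 from nodule tables. Phosphoenolpyruvate carboxylase, which refills the citric acid cycle with oxaloacetate, had 2 upregulated probesets of PEPC4. The brighter, GMFL01-28-O12-R_277, had signals of 6841, 10059 and 12689 in nitrate roots, against 723, 209.7 and 660.1 in control roots (log2 change 4.36 ± 0.50, SE, adjusted p 0.00834), and the dimmer, BI469169.1_494, had 396, 526 and 679 in nitrate roots, against 102, 45.4 and 101 in control roots (log2 change 2.75 ± 0.38, SE, adjusted p 0.0154). In both, control root 2 was the lowest of all arrays. Malate dehydrogenase, which interconverts oxaloacetate and malate, had 4 of 5 probesets upregulated, with log2 changes of the 5 from 1.14 to 2.18. The 1 downregulated probeset was a kinase of phosphoenolpyruvate carboxylase, PPCK4 (CA783260.1_595), with 1073, 1024 and 1213 in nitrate roots, against 2157, 2379 and 2599.8 in control roots (log2 change -1.11 ± 0.20, SE, adjusted p 0.0352). It was singled out after its values were seen, and its call was lost without nitrate root 1, 2 or 3 or control root 3 (adjusted p 0.118 to 0.210). The 3 probesets of an invertase known from mung bean, which splits sucrose, came from nodule tables and none passed the test, with log2 changes of -0.65 to -0.45. With the replicate block 17 probesets of the group were upregulated, and with the slide as a block 1 was. The number upregulated was 4, 3 and 5 without nitrate roots 1, 2 and 3 in turn, and 12, 8 and 4 without control roots 1, 2 and 3. The call of BI469169.1_494 was lost without nitrate root 1, 2 or 3 or control root 3 (adjusted p 0.0512 to 0.0644).

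Genes of amino acid and polyamine synthesis also had more upward than downward calls, 6 and 1 of 16 tested probesets, and 13 and 3 with the replicate block. All 16 came from the root tables, which were chosen on these arrays. Of all 1692 root-table probesets, 257 were upregulated and 444 downregulated without the block, and 948 and 712 with it. Spermidine synthase (CA800176.1_514), which makes the polyamine spermidine from putrescine, had signals of 3994, 4324 and 5758 in nitrate roots, against 585, 352 and 436 in control roots, a change of 10.3-fold (log2 change 3.37 ± 0.27, SE, adjusted p 0.00182). Its call held without any 1 array. A protein related to cystathionine beta-synthase (CX708923.1_569), named for an enzyme that joins serine and homocysteine in animals, had 163, 145 and 192 in nitrate roots, against 26.3, 6.99 and 14.2 in control roots (log2 change 3.59 ± 0.45, SE, adjusted p 0.0114). Control root 2 was lowest there too, and the call was lost without nitrate root 1 or 3 or control root 3 (adjusted p 0.0514 to 0.0592). Ornithine decarboxylase (AW349137.1_709), which makes putrescine and was singled out after its values were seen, had a log2 change of 2.26 (adjusted p 0.0180, limma). The downregulated probeset was a serine O-acetyltransferase, SAT1 (GMFL01-27-J06-R_306), of the first step of cysteine synthesis, with a log2 change of -1.35 (adjusted p 0.0228, limma), and it too was chosen after its values were seen. The calls of both were lost without nitrate root 1, 2 or 3 or control root 3 (adjusted p 0.0534 to 0.125). The number upregulated was 1, 2 and 1 without nitrate roots 1, 2 and 3 in turn, and 11, 9 and 1 without control roots 1, 2 and 3.

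Genes of purine and pyrimidine synthesis, the nucleolus, ribosomes and organelle protein synthesis had few calls without the replicate block. With it nearly all were called, as were nearly all probesets of the root tables. In the nucleolus group, which covers processing of ribosomal RNA, 6 of 43 tested probesets were upregulated and all 43 had a log2 change between 1.06 and 2.22. Among cytosolic ribosomal proteins 11 of 42 were upregulated and 1 was downregulated. In mitochondrial and plastid protein synthesis and folding 2 of 44 were upregulated, and in purine and pyrimidine synthesis 1 of 17. With the replicate block the numbers upregulated were 43 of 43, 40 of 42, 44 of 44 and 17 of 17 in the same order. Without the block but with scaling to the 75th percentile they were 29, 33, 31 and 11. Quantile normalization without the block gave 35, 32, 33 and 12. With the slide as a block 0 probesets of these 4 groups were called. All but 1 ribosomal protein probeset came from the root tables, which kept probesets above 2-fold, so a change of that size was a condition of the choice. Of all 1692 root-table probesets, 257 were upregulated and 444 downregulated without the block, and 948 and 712 with it. The rise in calls with the block is thus not particular to these groups.

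These counts moved with single arrays. The level of a group on an array is given here as the median, over its probesets, of the log2 signal minus the mean log2 signal of the 3 control roots. For the nucleolus group it was 1.67, 1.05 and 1.32 in nitrate roots, against 0.58, -0.62 and 0.03 in control roots. Control root 2 was the lowest and control root 1 the highest of the control roots. The median log2 change was 1.34 over all arrays and 0.78 on the same slide. It was 1.15 and 0.83 for ribosomal proteins, 1.21 and 0.78 for organelle protein synthesis and folding, and 1.20 and 0.76 for purine and pyrimidine synthesis. The number of nucleolus probesets upregulated was 0, 0 and 0 without nitrate roots 1, 2 and 3 in turn, and 39, 8 and 0 without control roots 1, 2 and 3. For ribosomal proteins it was 0, 0 and 0 without nitrate roots 1, 2 and 3 in turn, and 35, 8 and 1 without control roots 1, 2 and 3. For organelle protein synthesis it was 0, 0 and 0 without nitrate roots 1, 2 and 3 in turn, and 38, 8 and 0 without control roots 1, 2 and 3. For purine and pyrimidine synthesis it was 0, 0 and 0 without nitrate roots 1, 2 and 3 in turn, and 16, 1 and 0 without control roots 1, 2 and 3. Control root 2 also had the lowest scaled signals of the root arrays at the 75th percentile, and its part in these changes was not tested.

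**Figure D3:**
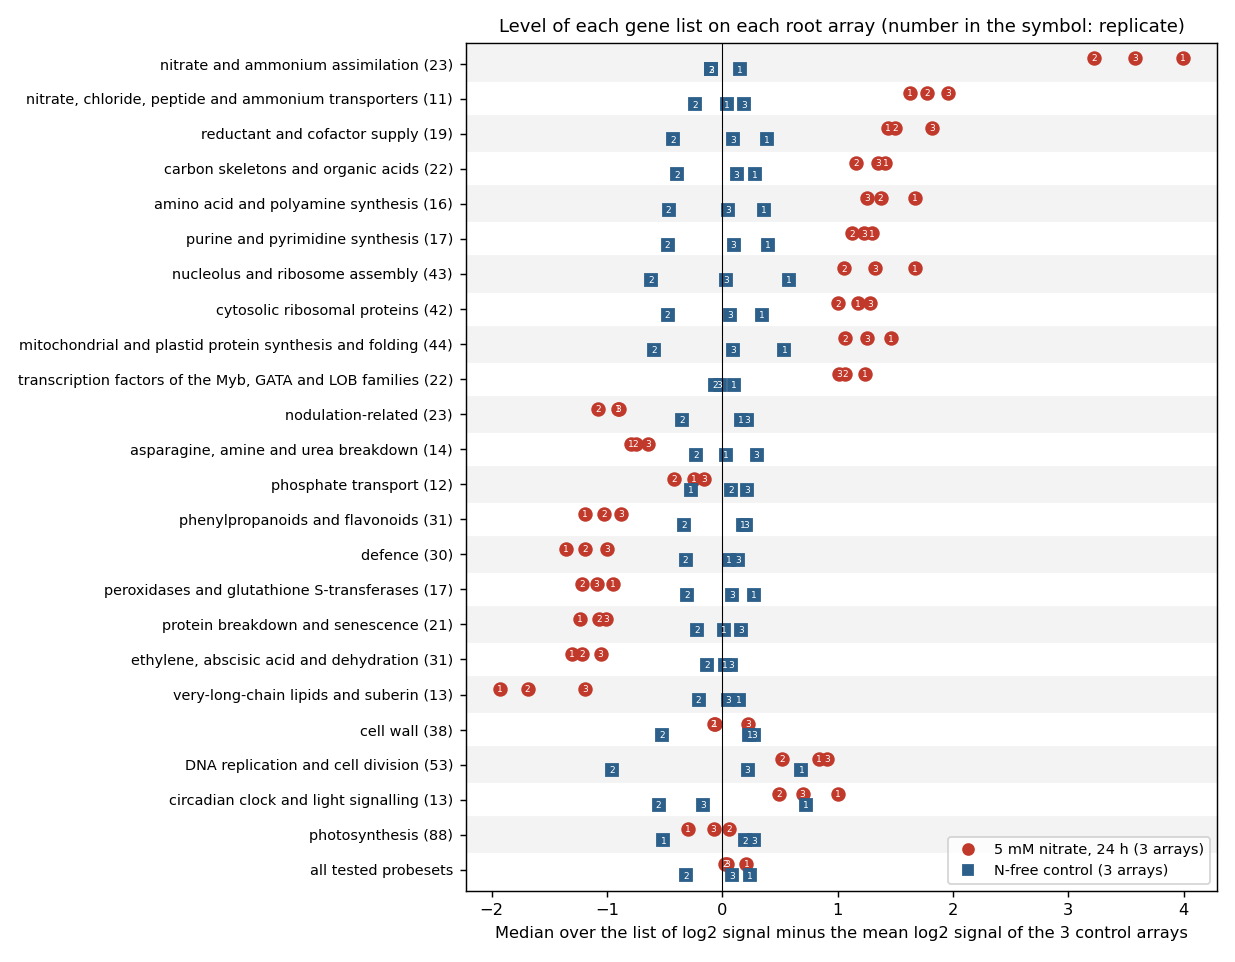
Level of each gene group on each of the 6 root arrays, as the median over its probesets of the log2 signal minus the mean log2 signal of the 3 control roots, with nitrate roots drawn above control roots and the replicate number in each symbol. Nitrogen assimilation lies at 3.22 or above in the nitrate roots and at 0.15 or below in the control roots, while in DNA replication and in the clock group control root 1, at 0.68 and 0.73, lies within the range of the nitrate roots.

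Single probesets give the size of these changes. A component of the snoRNP complex that pseudouridinylates ribosomal RNA (CX709927.1_579) had signals of 4599, 3818 and 4330.1 in nitrate roots, against 1919, 1343 and 1655 in control roots (log2 change 1.39 ± 0.22, SE, adjusted p 0.0240). A WD40-repeat subunit of the complex that processes small-subunit ribosomal RNA (CX706579.1_780) had 1746, 1024 and 1185 in nitrate roots, against 513, 277 and 416 in control roots (log2 change 1.72 ± 0.31, SE, adjusted p 0.0382). Fibrillarin, the methylase of ribosomal RNA in the nucleolus, had all 3 of its probesets upregulated, by log2 changes of 1.06 to 1.34. Ribosomal protein L10A (GMFL01-10-J22-R_343) had 34404, 33402 and 36918 in nitrate roots, against 18246, 10422 and 15291 in control roots (log2 change 1.29 ± 0.25, SE, adjusted p 0.0488).

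One ribosomal protein went the other way. A probeset of ribosomal protein L10 (CX709006.1_780) had signals of 1612, 1578 and 1438 in nitrate roots, against 8174, 7305 and 4753 in control roots (log2 change -2.09 ± 0.25, SE, adjusted p 0.00982), the only downregulated probeset among the 42. Mitochondrial elongation factor Tu (GMFL01-20-A07-R_381), which brings aminoacyl-tRNA to the mitochondrial ribosome, had 11147, 10945 and 12228 in nitrate roots, against 5811, 3310.2 and 4677 in control roots (log2 change 1.35 ± 0.25, SE, adjusted p 0.0416). A chloroplast chaperonin precursor (BF596487.1_576) was dim, with 17.8, 11.3 and 14.4 in nitrate roots, against 5.51, 4.93 and 4.13 in control roots, and as no control value was well above background its change was at least 1.56-fold (adjusted p 0.0236, limma). The enzyme that closes the purine ring, described as a transformylase and cyclohydrolase (BQ296723.1_148), had 72.0, 60.9 and 80.4 in nitrate roots, against 27.1, 12.2 and 26.6 in control roots (log2 change 1.78 ± 0.34, SE, adjusted p 0.0475). The calls of GMFL01-20-A07-R_381, BF596487.1_576, BQ296723.1_148 and of the 3 probesets given before, CX709927.1_579, CX706579.1_780 and GMFL01-10-J22-R_343, were lost without nitrate root 1, 2 or 3 or control root 3 (adjusted p 0.0709 to 0.195). The call of CX709006.1_780 was lost without nitrate root 1, 2 or 3 (adjusted p 0.0513 to 0.0541).

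Transcription factors of the Myb, GATA and LOB families held some of the largest changes. Of 22 tested probesets, 10 were upregulated and 2 downregulated, all 12 from the root tables, and with the replicate block 12 and 4. Probeset BF009157.1_153, described by a GARP-type Myb gene of Arabidopsis that is known as HHO3, had signals of 199.9, 175 and 176 in nitrate roots, against 6.71, 2.66 and 3.77 in control roots. No control value was well above background, so the change was at least 20.1-fold (adjusted p 7.60e-04, limma). Probeset BQ296965.1_2, described by the related gene HRS1, had 426, 461 and 397 in nitrate roots, against 13.6, 6.55 and 11.4 in control roots (log2 change 5.41 ± 0.30, SE, adjusted p 5.61e-04). In Arabidopsis, HRS1 and its relatives are nitrate-induced repressors that act in nitrate and phosphate signalling. Both calls held without any 1 array. A second probeset with the HRS1 description, GMFL01-27-E10-R_314, had a log2 change of 2.56 (adjusted p 0.0224, limma), and its call was lost without nitrate root 1 or 2 or control root 3 (adjusted p 0.0783 to 0.0886).

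GATA factors, a family that in Arabidopsis includes nitrate-inducible members, had 3 of 6 probesets upregulated, with log2 changes of the 6 from 0.20 to 4.39. The 3 that were not called came from nodule tables. The most changed of the 6, the upregulated BI427426.1_495, had signals of 2753, 2545 and 2464 in nitrate roots, against 132, 103 and 138 in control roots (log2 change 4.39 ± 0.21, SE, adjusted p 2.84e-04). The LOB domain proteins had 3 of 4 probesets upregulated. One of these, BQ253937.1_451, is described by LBD39, which in Arabidopsis represses genes of nitrate uptake and reduction, and it had 6650.5, 7470.5 and 7613 in nitrate roots, against 1787, 1520.0 and 1566 in control roots (log2 change 2.16 ± 0.19, SE, adjusted p 0.00306). Another, BU765673.1_412, is described by LBD16, a factor of lateral root formation in Arabidopsis, with 160.1, 187 and 204 in nitrate roots, against 31.6, 52.8 and 41.0 in control roots (log2 change 2.16 ± 0.25, SE, adjusted p 0.00877). A downregulated Myb factor, BU080494.1_473, had 145, 215 and 338 in nitrate roots, against 898, 1303 and 1689 in control roots (log2 change -2.52 ± 0.37, SE, adjusted p 0.0195). These 4 probesets and the second HRS1 probeset were singled out after their values were seen. The calls of BI427426.1_495 and BQ253937.1_451 held without any 1 array. That of BU765673.1_412 was lost without nitrate root 2 or control root 3 (adjusted p 0.0512 to 0.0513), and that of BU080494.1_473 without nitrate root 1 or 2 or control root 3 (adjusted p 0.0694 to 0.0888). Over the whole group, the number upregulated was 7, 6 and 9 without nitrate roots 1, 2 and 3 in turn, and 12, 9 and 6 without control roots 1, 2 and 3, and the number downregulated was 0, 0 and 1 without nitrate roots 1, 2 and 3 in turn, and 2, 2 and 0 without control roots 1, 2 and 3.

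Genes known from nodulation had more downward than upward calls. Of 23 tested probesets, 1 was upregulated and 6 were downregulated, and with the replicate block 6 and 14. All of these calls were among the 20 probesets from the root tables, where 444 of all 1692 were downregulated and 257 upregulated. The 3 from nodule tables had no call and a median log2 change of 0.48. The median log2 change was -1.07, and -1.05 on the same slide. A nodulin-like protein (BE806216.1_3) fell most, with signals of 584, 290.1 and 251 in nitrate roots, against 5543, 4579 and 6556 in control roots, a 15.8-fold decrease (log2 change -3.98 ± 0.35, SE, adjusted p 0.00295), and its call held without any 1 array. NSP1 and NSP2, a pair of GRAS factors that act in Nod factor signalling, had log2 changes of -1.23 (probeset CX711851.1_705, adjusted p 0.0657) and -1.04 (CX708617.1_668, adjusted p 0.0631). Neither passed the test, and with the replicate block both did (adjusted p 0.0188 for NSP1, 0.0213 for NSP2). NSP1 had signals of 482, 520.5 and 681 in nitrate roots, against 1496, 949.9 and 1566 in control roots, and NSP2 had 67.0, 84.2 and 86.8 in nitrate roots, against 143, 151 and 196 in control roots, with no overlap between the groups in either. They were named after their values were seen.

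Proteins with a LysM domain, the kind that binds chitin-like molecules such as Nod factors, had 2 of 3 probesets downregulated. The third, a kinase with such a domain that was named after its values were seen (BU548810.1_658), had 69.5, 60.7 and 65.0 in nitrate roots, against 20.1, 4.12 and 22.2 in control roots, and did not pass the test (log2 change 2.41, adjusted p 0.0877, and 0.0190 with the block). Remorins, membrane proteins of which some act at the symbiotic interface, had 1 of 4 downregulated, and 4 of 4 with the block. The upregulated probeset was early nodulin 40 (BQ741901.1_501), a short RNA induced early in nodule formation, with 5515, 9759.8 and 10274 in nitrate roots, against 1585, 1794 and 2295 in control roots (log2 change 2.14 ± 0.30, SE, adjusted p 0.0167). Its call was lost without nitrate root 2 or 3 or control root 3 (adjusted p 0.0559 to 0.0825). The number of nodulation-related probesets downregulated was 1, 1 and 1 without nitrate roots 1, 2 and 3 in turn, and 7, 12 and 1 without control roots 1, 2 and 3. The number upregulated was 1, 0 and 0 without nitrate roots 1, 2 and 3 in turn, and 4, 3 and 0 without control roots 1, 2 and 3.

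Genes that break down asparagine and related nitrogen compounds had downward calls only, in contrast to those of asparagine synthesis. Of 14 tested probesets, 5 were downregulated and 0 upregulated in limma (with the replicate block 6 and 3). All of these calls were among the 9 from the root tables, and none among the 5 from nodule tables. Asparaginase, which releases ammonium from asparagine, had 3 of 4 probesets downregulated. The most changed, BE658128.1_628, had signals of 106, 115 and 169 in nitrate roots, against 419, 433 and 677 in control roots (log2 change -1.97 ± 0.29, SE, adjusted p 0.0192). Alanine-glyoxylate aminotransferase had 2 of 3 downregulated, and its probeset AW201054.1_572 had 198, 148 and 141 in nitrate roots, against 504, 593 and 763 in control roots (log2 change -1.93 ± 0.25, SE, adjusted p 0.0116). In both enzymes the nitrate roots lay below the control roots in every probeset named, as in all downregulated probesets. The calls were lost without nitrate root 1 or 2 or control root 3 (adjusted p 0.0783 to 0.0971) for the asparaginase and without nitrate root 2 or 3 or control root 3 (adjusted p 0.0601 to 0.0741) for the aminotransferase. The amine oxidases, which break down polyamines, had no call in 6 probesets, and 3 of them were upregulated with the block. The number of probesets downregulated in the whole group was 1, 0 and 2 without nitrate roots 1, 2 and 3 in turn, and 5, 6 and 0 without control roots 1, 2 and 3.

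Of the probesets of phosphate transport, the 5 from the root tables were all downregulated, while 0 of the 7 from nodule tables passed the test in limma, with or without the block. The 5 were chosen for a change on these arrays and the 7 were in no root table. A split of this kind was thus favoured by the choice. An inorganic phosphate transporter (AW186220.1_483) had signals of 262, 256 and 285 in nitrate roots, against 787, 1038 and 1073 in control roots (log2 change -1.84 ± 0.21, SE, adjusted p 0.00834). A transporter like pt2 of Sesbania (BM176910.1_462) had 2807, 3526 and 4221 in nitrate roots, against 8449, 11029.9 and 12345 in control roots (log2 change -1.59 ± 0.25, SE, adjusted p 0.0236). The other 3 downregulated probesets had log2 changes of -1.54, -1.51 and -1.45. Another pair of probesets with the pt2 description did not pass the test. Probeset GMFL01-26-C22-R_426 had 184235, 231077 and 208452 in nitrate roots, against 131472, 182958 and 174128 in control roots (log2 change 0.36, adjusted p 0.373), and BQ473454.1_259 had 70406, 89118 and 80109 in nitrate roots, against 42714, 57691 and 54797 in control roots (0.63, adjusted p 0.159).

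None of the remaining 5 phosphate probesets was called. Their log2 changes lay between -0.51, for the plastid transporter PHT2-1 (CO979540.1_541), and 1.04, for a purple acid phosphatase (GMFL01-41-C15-R_491). Leaving out 1 array changed all 5 calls. The call of AW186220.1_483 was lost without nitrate root 1 or 2 or control root 3 (adjusted p 0.0515 to 0.0593), and that of BM176910.1_462 without nitrate root 1, 2 or 3 or control root 3 (adjusted p 0.0633 to 0.118). That of BQ610641.1_98 was lost without nitrate root 1, 2 or 3 or control root 2 or 3 (adjusted p 0.0511 to 0.168). Those of GMFL01-28-L18-R_260 and GMFL01-15-E22-R_342 were lost without nitrate root 1, 2 or 3 or control root 3 (adjusted p 0.0708 to 0.131).

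Phenylpropanoid and flavonoid genes, of the pathway that makes isoflavones, lignin and anthocyanins, had downward calls only. Of 31 tested probesets 13 were downregulated and 0 upregulated in limma, and with the replicate block 17 were downregulated and 3 upregulated. All 13 came from the root tables, while 0 of 11 from nodule tables passed, with a median log2 change of 0.24 among them. The 3 probesets like daidzein 7-O-methyltransferase of licorice, which methylates an isoflavone, fell most. The first, BM188258.1_181, had signals of 217, 153 and 139 in nitrate roots, against 1053, 764 and 1115 in control roots (log2 change -2.53 ± 0.26, SE, adjusted p 0.00579), and the second, BE021456.1_355, had 146, 97.0 and 87.9 in nitrate roots, against 704, 433 and 619 in control roots (log2 change -2.41 ± 0.29, SE, adjusted p 0.00971). Chalcone synthase, the entry enzyme of flavonoid synthesis, had all 4 of its probesets downregulated, by log2 changes of -1.60 to -1.09. The median signal of the 4 was 1674, 1773 and 2047 in nitrate roots, against 4774, 4013 and 4624 in control roots. The probeset of phenylalanine ammonia-lyase, which opens the pathway (AI495627.1_380), differed from these, with a log2 change of 1.41 that did not pass the test (adjusted p 0.168, and 0.0442 with the block), and it was singled out after its values were seen. The number downregulated was 5, 4 and 5 without nitrate roots 1, 2 and 3 in turn, and 13, 15 and 4 without control roots 1, 2 and 3. The call of BE021456.1_355 was lost without nitrate root 2 or control root 3 (adjusted p 0.0517 to 0.0547), and that of BM188258.1_181 held without any 1 array.

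Defence genes also had mostly downward calls, with 14 of 30 tested probesets downregulated and 1 upregulated, and 20 and 2 with the block. Without the block all calls were among the 21 probesets from the root tables. The 9 from nodule tables had no call, and a median log2 change of 0.11. A class V chitinase (BM085021.1_502), an enzyme that cuts chitin of fungal walls, had signals of 43.9, 61.1 and 92.7 in nitrate roots, against 510.2, 461 and 507 in control roots, a 7.82-fold decrease (log2 change -2.97 ± 0.29, SE, adjusted p 0.00489). Its call held without any 1 array. Chitinase III-A (BI971083.1_685) had a log2 change of -2.36 (adjusted p 0.00577, limma), and was singled out after its values were seen; its call held without any 1 array. The exception was a thaumatin family protein, of pathogenesis-related proteins (CX708467.1_770), with 4785, 7983 and 10122 in nitrate roots, against 646, 378 and 1048 in control roots, an 11.5-fold increase (log2 change 3.52 ± 0.43, SE, adjusted p 0.0102) that held without any 1 array. The number of defence probesets downregulated was 3, 3 and 4 without nitrate roots 1, 2 and 3 in turn, and 14, 13 and 2 without control roots 1, 2 and 3.

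Peroxidases and glutathione S-transferases had 8 of 17 tested probesets downregulated and 0 upregulated in limma, and 10 and 3 with the block. All of these calls were among the 14 from the root tables. The 3 from nodule tables had no call, and a median log2 change of 0.36. GST 5 (GMFL01-28-N08-F_502), which joins glutathione to foreign or reactive compounds, had signals of 10.3, 21.9 and 9.85 in nitrate roots, against 148, 159.9 and 171 in control roots, a 12.2-fold decrease (log2 change -3.61 ± 0.33, SE, adjusted p 0.00338). A peroxidase like px12 of Stylosanthes (BI969658.1_480) had 31.0, 39.1 and 16.2 in nitrate roots, against 292, 195 and 246 in control roots (log2 change -3.16 ± 0.36, SE, adjusted p 0.00799). In both, the lowest control root was well above the highest nitrate root, and both calls held without any 1 array. The number downregulated was 3, 2 and 5 without nitrate roots 1, 2 and 3 in turn, and 8, 10 and 3 without control roots 1, 2 and 3.

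**Figure D4:**
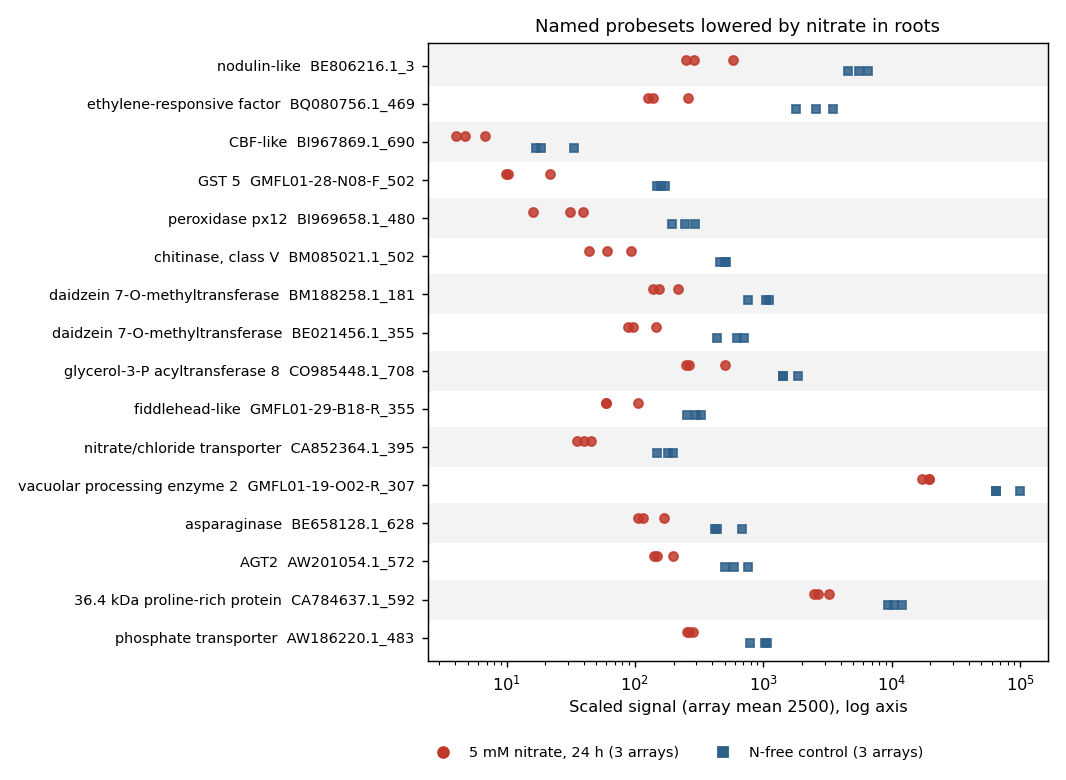
Scaled signal (log scale) of named downregulated probesets in each nitrate root and each control root, with 1 point per array. In every probeset shown the 3 nitrate roots lie below the 3 control roots, as they do in all 577 downregulated probesets.

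Genes of ethylene, abscisic acid and dehydration responses had mostly downward calls. Of 31 tested probesets 15 were downregulated and 2 upregulated, and with the replicate block 22 and 3. All of these came from the root tables. The median log2 change was -1.14, and -1.15 on the same slide. The largest decrease was in an ethylene-responsive factor (BQ080756.1_469), described by the Arabidopsis gene known as ORA59, which acts in jasmonate and ethylene signalling there. It had signals of 126, 139 and 257 in nitrate roots, against 2587, 1805 and 3474 in control roots, a 15.3-fold decrease (log2 change -3.94 ± 0.36, SE, adjusted p 0.00338) that held without any 1 array. A CBF-like protein, of a family that binds cold and drought response elements (BI967869.1_690), had 6.86, 4.02 and 4.74 in nitrate roots, against 33.6, 17.0 and 18.5 in control roots. No nitrate value was well above background, so it was at least 2.60-fold lower (adjusted p 0.0249, limma), and the call was lost without nitrate root 1, 2 or 3 or control root 3 (adjusted p 0.0598 to 0.111).

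Over the AP2, ERF, CBF and DREB factors 9 of 13 probesets were downregulated and 1 was upregulated. The upregulated one, GMFL01-11-B11-R_505, had 26847, 33812 and 35263 in nitrate roots, against 8439, 8848 and 12429.7 in control roots (log2 change 1.70 ± 0.24, SE, adjusted p 0.0163). ACC oxidase, which makes ethylene, had a downregulated probeset (BI970718.1_629) with a log2 change of -1.51 (adjusted p 0.0289, limma). Galactinol synthase, of the raffinose sugars that build up in dry or cold plants, had 2 probesets downregulated, with log2 changes of -1.77 (GMFL01-17-G03-R_472) and -1.63 (CX711381.1_568). These 4 probesets were named after their values were seen. The call of GMFL01-11-B11-R_505 was lost without nitrate root 1, 2 or 3 (adjusted p 0.0551 to 0.1), those of BI970718.1_629 and GMFL01-17-G03-R_472 without nitrate root 1, 2 or 3 or control root 3 (adjusted p 0.0789 to 0.127) and that of CX711381.1_568 without nitrate root 1 or 2 or control root 3 (adjusted p 0.0551 to 0.0654). The number downregulated in the group was 1, 1 and 4 without nitrate roots 1, 2 and 3 in turn, and 15, 12 and 2 without control roots 1, 2 and 3.

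Genes of very-long-chain lipids and suberin, the waxy polymer of the root endodermis and exodermis, were lower in nitrate roots in all 13 tested probesets. Of these 8 were downregulated, and 12 with the replicate block. All of these calls were among the 12 from the root tables, for which a change above 2-fold on these arrays was a condition of the choice. The 1 from a nodule table was called in neither fit, with a log2 change of -1.11, and 0.31 on the same slide. Glycerol-3-phosphate acyltransferase (CO985448.1_708), of a family that builds cutin and suberin monomers, had signals of 249.7, 262 and 507 in nitrate roots, against 1853, 1424 and 1429 in control roots (log2 change -2.28 ± 0.32, SE, adjusted p 0.0160). A protein like FIDDLEHEAD, which is a fatty acid elongase in Arabidopsis (GMFL01-29-B18-R_355), had 59.9, 59.3 and 104.9 in nitrate roots, against 329, 252 and 297 in control roots (log2 change -2.02 ± 0.28, SE, adjusted p 0.0163). Both had groups that did not overlap, as did all called probesets. The elongases and ketoacyl-CoA synthases as a class had 5 of 6 probesets downregulated. The number downregulated in the group was 0, 0 and 7 without nitrate roots 1, 2 and 3 in turn, and 9, 11 and 0 without control roots 1, 2 and 3. The calls of both named probesets were lost without nitrate root 1 or 2 or control root 3 (adjusted p 0.0704 to 0.0833).

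The cell wall group did not move as a whole. Of 38 tested probesets 3 were downregulated and 0 upregulated in limma (7 and 2 with the replicate block), and the median log2 change was 0.04. A proline-rich protein (CA784637.1_592) had signals of 2674, 2503 and 3247 in nitrate roots, against 9380.0, 10373 and 11923 in control roots (log2 change -1.91 ± 0.21, SE, adjusted p 0.00735), and an extensin-like protein (BI426552.1_485), a structural glycoprotein of the wall, had 4301, 4986 and 6953 in nitrate roots, against 19115, 15189 and 23551 in control roots (log2 change -1.84 ± 0.27, SE, adjusted p 0.0194). Expansins and pectate lyases, which loosen walls, had no call. The number downregulated was 1, 0 and 3 without nitrate roots 1, 2 and 3 in turn, and 3, 6 and 1 without control roots 1, 2 and 3. The call of the proline-rich protein was lost without nitrate root 2 (adjusted p 0.0539), and that of the extensin without nitrate root 1 or 2 or control root 3 (adjusted p 0.0880 to 0.102).

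Genes of protein breakdown and senescence had 6 of 21 tested probesets downregulated and 1 upregulated, and 13 and 3 with the block. All of these calls were among the 16 from the root tables, and none among the 5 from nodule tables. Vacuolar processing enzyme 2 (GMFL01-19-O02-R_307), a protease that matures proteins in the vacuole, had signals of 17258, 19372 and 19555 in nitrate roots, against 64937, 64956 and 100157 in control roots, a 4.01-fold decrease (log2 change -2.0 ± 0.24, SE, adjusted p 0.00971). Aspartyl proteases moved both ways. Of their 5 probesets 3 were downregulated, while GMFL01-13-O10-R_518 was upregulated, with 13168, 14174 and 10271 in nitrate roots, against 1618, 2646 and 1050.5 in control roots (log2 change 2.91 ± 0.35, SE, adjusted p 0.00981). The 5 cysteine proteinases had 1 downregulated probeset, and 5 with the block. The call of the vacuolar enzyme was lost without nitrate root 1 or 2 (adjusted p 0.0541 to 0.0551), and that of the upregulated protease without nitrate root 1 (adjusted p 0.0551). The number downregulated in the group was 0, 0 and 2 without nitrate roots 1, 2 and 3 in turn, and 10, 11 and 1 without control roots 1, 2 and 3.

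DNA replication and clock genes had positive median log2 changes and no upward call with all 6 arrays. Without control root 1, 2 of 53 DNA replication probesets and 5 of 13 clock probesets were upregulated, and without any other 1 array 0 of either group were. In DNA replication and cell division, 0 of 53 tested probesets were upregulated in limma (12 with the block) and 1 was downregulated. The 42 from nodule tables, which were in no root table, had a median log2 change of 0.59, with 39 above 0. On the same slide their median was 0.07. The group's level by array was 0.84, 0.52 and 0.91 in nitrate roots, against 0.68, -0.96 and 0.22 in control roots, on the scale of the plot of group levels, so control root 1 lay among the nitrate roots. The downregulated probeset was a histone of the core nucleosome (GMFL01-24-F18-R_521), with signals of 15.6, 17.1 and 19.9 in nitrate roots, against 40.6, 50.2 and 48.1 in control roots (log2 change -1.40 ± 0.21, SE, adjusted p 0.0194), and its call was lost without nitrate root 1, 2 or 3 or control root 3 (adjusted p 0.0671 to 0.124).

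The clock gene LHY, a morning-phased repressor, had 8 probesets with log2 changes of 0.12 to 1.46, and of -0.23 to 0.31 on the same slide. None of the 8 was called, and with the block 2 were, BE347683.1_440 (log2 change 1.46, adjusted p 0.0319 with the block) and GMFL01-16-E08-F_748 (1.37, adjusted p 0.0182 with the block), which were named after their values were seen. The brightest 2 changed by under 2-fold and were called in neither fit. The first, GMFL01-22-O05-R_21, had 5764, 3880.3 and 4112 in nitrate roots, against 4097, 1657 and 2119.6 in control roots (log2 change 0.89, adjusted p 0.216, and 0.0419 with the block), where control root 1 lay inside the nitrate range. A second, BU760931.1_453, had 2006, 1258 and 1423 in nitrate roots, against 1412, 537 and 673 in control roots (log2 change 0.94, adjusted p 0.221, and 0.0374 with the block).

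Photosynthesis genes did not move together. The small subunit of ribulose bisphosphate carboxylase had 9 of 26 probesets upregulated (13 with the block), and all 26 had a log2 change above 0. Their median was 1.04, and 1.45 on the same slide. Of the 26, 15 came from nodule tables, and none of these was called, so all 9 calls are of probesets chosen on these root arrays. Probeset BE190745.1_101 had signals of 370.2, 408 and 389 in nitrate roots, against 118, 143 and 177 in control roots (log2 change 1.44 ± 0.22, SE, adjusted p 0.0228), and BI469410.1_205 had 2703, 3067 and 3056 in nitrate roots, against 999.9, 1039 and 1297 in control roots (log2 change 1.41 ± 0.20, SE, adjusted p 0.0184). The chlorophyll a/b-binding proteins, all 26 from nodule tables, had no call (3 downregulated with the block), with a median log2 change of -0.47, and 0.12 on the same slide, so their direction turned with the control array used. Over the whole photosynthesis group 9 of 88 tested probesets were upregulated and 0 downregulated in limma, and with the block 14 and 4. The number upregulated was 0, 0 and 0 without nitrate roots 1, 2 and 3 in turn, and 10, 9 and 0 without control roots 1, 2 and 3, and the number downregulated was 0, 0 and 0 without nitrate roots 1, 2 and 3 in turn, and 10, 0 and 0 without control roots 1, 2 and 3. The calls of BE190745.1_101 and BI469410.1_205 were lost without nitrate root 1, 2 or 3 or control root 3 (adjusted p 0.0624 to 0.135).

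Several of the largest changes had no gene name. Among upregulated probesets, GMFL01-10-M15-R_587 had signals of 42499, 58681 and 96786 in nitrate roots, against 139.5, 111 and 156 in control roots, a change of 464-fold (log2 change 8.86 ± 0.33, SE, adjusted p 1.15e-04). Probeset BG650957.1_283 had 8099, 5757 and 7861 in nitrate roots, against 29.6, 11.5 and 19.6 in control roots (log2 change 8.57 ± 0.36, SE, adjusted p 2.34e-04), and BM271463.1_417 had 11391, 9867 and 7198 in nitrate roots, against 22.5, 53.3 and 43.3 in control roots (log2 change 7.96 ± 0.36, SE, adjusted p 2.54e-04). These changes were of the same order as those of nitrite reductase, and all 3 kept their call without any 1 array. Among downregulated probesets, CO984163.1_298 had 2.21, 2.46 and 4.42 in nitrate roots, against 131, 99.9 and 173 in control roots, at least 15.5-fold lower, since no nitrate value was well above background (adjusted p 7.60e-04, limma). Likewise BQ629448.1_370 had 4.79, 7.13 and 4.57 in nitrate roots, against 154, 97.2 and 229.8 in control roots, at least 17.9-fold lower (adjusted p 0.00139). Another pair was bright in control roots and uneven among them.

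Probeset CO984901.1_604 had signals of 162, 131 and 146 in nitrate roots, against 13566, 7029 and 1842 in control roots (log2 change -5.26 ± 0.65, SE, adjusted p 0.0107), and CF806770.1_618 had 19.9, 12.6 and 13.7 in nitrate roots, against 1526, 667 and 178 in control roots (log2 change -5.23 ± 0.71, SE, adjusted p 0.0147). In both, the control roots ranged widely and still stayed far above the nitrate roots. Probeset AW349250.1_725 had 1522, 927 and 673 in nitrate roots, against 17313, 16204 and 21969 in control roots, an 18.6-fold decrease (log2 change -4.22 ± 0.32, SE, adjusted p 0.00167). The call of CO984901.1_604 was lost without nitrate root 1 (adjusted p 0.0551) and that of CF806770.1_618 without nitrate root 1, 2 or 3 (adjusted p 0.0517 to 0.0598), while those of CO984163.1_298, BQ629448.1_370 and AW349250.1_725 held without any 1 array.

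The change on the same slide differed little from that over all arrays for most of the largest changes. For nitrite reductase (GMFL01-08-I05-R_317) it was 9.03, against 9.08 over all arrays, and for NRT2 (GMFL01-19-H08-R_500) it was 4.73, against 4.56. For the nodulin-like protein (BE806216.1_3) it was -3.99, against -3.98, and for GST 5 (GMFL01-28-N08-F_502) it was -3.51, against -3.61. It was further from 0 for CO984901.1_604, at -6.54 against -5.26, and for CF806770.1_618, at -6.66 against -5.23. For the ribosomal protein L10A (GMFL01-10-J22-R_343) it was 0.93, against 1.29. Of the 60 called probesets that the naming rule chose, 20 were called with the slide as a block, a fit in which the nitrate effect rests on control root 1 alone.

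**Figure D5:**
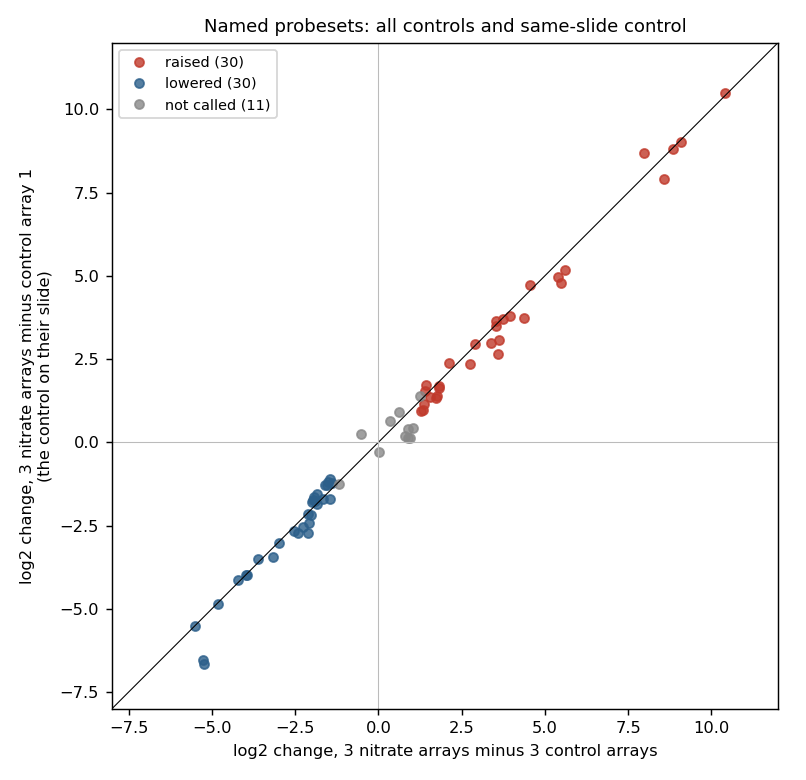
Log2 change over all 6 root arrays (horizontal axis) and on the slide that holds the nitrate roots and control root 1 (vertical axis), with 1 point per named probeset and the line of equal change. Most of the largest changes lie near the line, with 2 downregulated probesets (CO984901.1_604 and CF806770.1_618) further from 0 on the same slide, while several probesets with a small increase lie below the line.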

How the data were processed

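RNA of 12 soybean samples was labelled with Cy3 and hybridised to 1-colour Agilent arrays. The spot intensities are those the authors deposited as scanner output of Feature Extraction, whose version the labels give as 9.5.1 and the file headers as 10.5.1.1. The values analysed are the background-subtracted processed signals. The submitters' value table of the series held the same values (529980 of 529980 equal). Following the study's methods, each array was scaled to a mean of 2500, and log2 was taken. On the root arrays 59 outlier spots were left out and 0 were saturated.

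The 6 root arrays were compared with limma 3.58.1 (R 4.3.3), nitrate minus control, without a block. Calls needed a Benjamini-Hochberg adjusted p under 0.05 and a change above 2-fold. Where no array of a group was well above background, a fold is given as a lower bound, against the higher of the probe's own signal and the lowest signal well above background on each array. Replicate numbers come from the titles. Deviations of same-numbered nitrate and control roots correlated at r = 0.29, 0.40 and 0.61 over 33921 probesets. All were over 0.1, the rule for taking the numbers to pair the samples. With 3 arrays per group, and probesets that are not replicates, the pairing has no support beyond this rule. Tables were made with Python 3.11.15 and pandas 2.3.3, and the fits were tested on simulated data.

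Members and gene groups were chosen with earlier results of these data known. Named probesets are up to 2 called ones per group with the largest change, the 5 largest in each direction among all probesets, and any member of groups of at most 12. Others are said to have been chosen after their values were seen. Descriptions came from the study's supplementary tables, of which 1 was read in part (742 probes), and no fold change or p-value in them was used. The nodule arrays served only for organ-abundant probesets and the fit of all arrays. The precision is limited by 3 arrays per group, each a pool of plants. Alternatives were other scalings, background correction, filters, the slide and the replicate number as blocks, the methods' t-test, all 12 arrays in one fit, and each array left out.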

Additional observations from a re-analysis of the deposited data

How the results depend on the processing

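The 289 upregulated and 577 downregulated probesets became 640 and 1092 with scaling to the 75th percentile, 738 and 1077 with quantile normalization, and 1293 and 1436 with all 12 arrays in one fit. With no filter on dim probes there were 203 and 353. With the replicate block they became 1435 and 1468, and the block changed no call among the 60 called probesets that the naming rule chose. With the slide as a block they became 79 and 49, and on only the slide holding both groups 63 and 29. The methods' t-test called 896 and 1050 at an unadjusted p and 44 and 33 after Benjamini-Hochberg adjustment. With 1 array left out the upregulated numbered between 118 and 1121 and the downregulated between 68 and 1399. Normexp background correction gave 421 and 697, a filter on all 6 arrays 251 and 542, and the value table of the series again 289 and 577. Of the 60 named calls, 60 stayed under the 75th percentile, quantile normalization and all 12 arrays, 56 under normexp, 53 without a filter, 20 with the slide as a block, 16 on only that slide, 58 by the unadjusted and 7 by the adjusted t-test, and 29 to 60 with 1 array left out. None changed sign. The cause of these differences was not tested.

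Probesets of small change that were not called turned in sign. The log2 change of CF805923.1_567, 0.03 over all arrays, was -0.054 with the 75th percentile, -0.11 with quantile normalization, -0.13 with normexp and -0.28 with the slide as a block or on that slide alone, and it lay between -0.24 and 0.22 with 1 array left out. That of CO979540.1_541, -0.51 over all arrays, was 0.24 with the slide as a block or on that slide alone, and between -0.89 and 0.055 with 1 array left out. The median of all tested probesets, 0.10, was 0.02, 0.04 and 0.03 with the 75th percentile, quantile normalization and normexp. Among the 23 group medians, that of the cell wall (0.04) was -0.042 with the 75th percentile, -0.055 with quantile normalization, -0.19 with the slide as a block and -0.17 and -0.084 without control root 2 and without nitrate root 3. That of photosynthesis (-0.22) was 0.25 with the slide as a block, and that of phosphate transport (-0.24) was 0.02 without control root 2.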

Other observations

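Some described genes outside the 23 gene groups also changed, and they were picked after their values were seen, so their counts describe these arrays only. Both glutaredoxins, small proteins that use glutathione to reduce disulfides, were upregulated, and the most changed, AW830807.1_336, had signals of 447, 604 and 544 in nitrate roots, against 24.8, 27.4 and 20.4 in control roots (log2 change 4.46 ± 0.22, SE, adjusted p 3.77e-04). The other, BE024005.1_419, had a log2 change of 2.04, and its call was lost without nitrate root 1, 2 or 3 or control root 3 (adjusted p 0.0857 to 0.128). A protein of the HPP family (CD409961.1_576), of which an Arabidopsis member carries nitrite into plastids, had 1618, 1724 and 1859 in nitrate roots, against 104, 105.5 and 108 in control roots (log2 change 4.03 ± 0.18, SE, adjusted p 2.54e-04). All 3 probesets of inositol trisphosphate kinase were upregulated by log2 changes of 2.28 to 3.17, and all 5 of a serine/threonine kinase known from Lotus japonicus by 2.24 to 2.78. The 2 probesets with a TAZ zinc-finger description had log2 changes of 3.15 and 3.97, both called.

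Iron storage and a triterpene enzyme were among the downregulated genes. Ferritin, which stores iron in plastids, had 3 of 3 probesets downregulated, by log2 changes of -2.47 to -1.13. The probeset with the smallest of these changes, GMFL01-41-L24-R_307, lost its call without nitrate root 1, 2 or 3 or control root 1 or 3 (adjusted p 0.0529 to 0.194). Beta-amyrin synthase, which makes the precursor of triterpene saponins, had 1 of 4 probesets downregulated. That probeset, BI498434.1_344, had signals of 1.53, 1.61 and 2.00 in nitrate roots, against 31.0, 16.4 and 20.8 in control roots, at least 2.60-fold lower as no nitrate value was well above background (adjusted p 0.00164, limma), while the highest log2 change of the 4 was 0.90. Of 5 probesets with a NAC domain 2 were downregulated, and of 8 lipoxygenases 1 was upregulated and 1 downregulated.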
